A study of Rattus norvegicus with 9 samples.

Results

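The genes described here encode the laminin chains, the proteins that link the laminin network to the rest of the basement membrane, and the integrin chains. They were taken by symbol: every gene named Lama, Lamb or Lamc with a number, every gene named Itga or Itgb with a number or v, and Nid1, Nid2, Hspg2 and Agrn, which gave 36 of the 19085 genes in the count table. Of these, 11 were laminin chains, 4 were linkers, 13 were integrin alpha chains and 8 were integrin beta chains. Integrin alpha chains named by a letter, such as Itgam and Itgal of leukocytes, were not taken. The rule used symbols and no measured value.

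Polyadenylated RNA of primary rat osteoblasts was sequenced in 9 libraries, 3 in each of 3 groups. The cells came from calvaria digested with collagenase, taken from male Sprague-Dawley rats at an age of 24 hours, and were used at first passage, although the tissue field of the labels reads knee. All groups, the control included, were kept for 7 days in osteogenic induction medium with serum, β-glycerophosphate, ascorbic acid and dexamethasone. The control group received this medium alone, the thrombin group 20 U/mL thrombin, and the PD03 group 20 U/mL thrombin together with the MEK inhibitor PD0325901 (PD03) at 0.1 μM by the design text and in mM by a protocol of the labels. No group received PD03 without thrombin. The sources used here do not say whether the 3 libraries of a group came from separate animals, so p-values measure the spread between these samples, which may be technical.

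A laminin is a trimer of an alpha, a beta and a gamma chain that assembles into a sheet on the cell surface. Nidogens (Nid1, Nid2) tie this sheet to type IV collagen, perlecan (Hspg2) is the large heparan sulphate proteoglycan of the same layer, and agrin (Agrn) binds laminin on its matrix side and dystroglycan on the cell side. Integrins are pairs of an alpha and a beta chain that span the membrane, and the pairing decides whether a cell binds laminin, collagen, fibronectin or other ligands. Osteoblasts lie on a matrix dominated by type I collagen, and their adhesion to collagen and fibronectin has long been studied in bone formation.

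Total counts lay between 15447832 and 19841468 per library. The 36 genes took 0.968 to 0.977% of all counts in the control libraries, 1.00 to 1.01% in the thrombin libraries and 1.06 to 1.09% in the PD03 libraries. Among 10 osteoblast markers, Col1a1 and Runx2 were detected at mean levels of 47443 and 42.8 CPM (counts scaled to the size of the library) in the control group, whereas the late markers Bglap, Ibsp and Dmp1 had at most 5 counts in any library. Runx2 had means of 51.1 CPM with thrombin and 32.1 CPM with PD03, and Col1a1 went the other way (42854 and 72132 CPM). Alpl was scarce, with means of 1.67, 0.345 and 3.11 CPM in control, thrombin and PD03. Sp7 had means of 4.25, 6.20 and 4.95 CPM in the same order, and Phex had 3 to 18 counts per library. Of the markers of other cell types, Ptprc of leukocytes had 0 to 6 counts per library, Pecam1 of endothelium 1 to 8, Krt5 of stratified epithelium 0 to 3, and Myog of skeletal muscle 0 to 3. Other genes of the same marker lists were expressed: Cd14 had 249 to 562 counts, Egfl7 344 to 756, Tek 100 to 172 and Krt8 57 to 222, and Tek, Kdr and Krt8 rose with PD03 against thrombin. The summed level of 10 smooth muscle and pericyte markers lay between 1353 and 1544 CPM in the control libraries and between 1328 and 1439 CPM in the thrombin libraries. With PD03 it lay between 2904 and 2994 CPM. Of the 8 of these markers that were tested, 6 rose with PD03 against thrombin, led by Acta2, where 9.61% of all tested genes rose. Acta1, 1 of the 6, had 2 to 6 counts per library in control, 9 with thrombin and 15 to 25 with PD03. It was testable only through the PD03 group, so its rise is a description. Most of the sum came from Acta2 and Tagln (means of 1457 and 1346 CPM with PD03). Des had means of 6.92, 7.10 and 7.63 CPM in control, thrombin and PD03. Of 7 tested osteoblast markers, 3 rose and 2 fell with PD03 against thrombin, where 9.61% and 6.31% of all tested genes did. Spp1, 1 of these markers, was highest with thrombin (means of 63.7, 185 and 53.1 CPM in control, thrombin and PD03). The osteoblast marker sum, most of it Col1a1, was also highest with PD03. It lay between 60717 and 66509 CPM in control, 55826 and 59057 CPM with thrombin, and 95117 and 98252 CPM with PD03. In bulk RNA, fewer cells of a type and less RNA per cell cannot be told apart.

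Sequence upstream of the transcription start was looked up for all 36 genes in a RefSeq promoter table of the rat assembly GRCr8, and 28 had an entry. The Lamb3 and Itga8 stretches are printed because these genes had the largest rise and the largest fall with thrombin, and the Lama3 stretch because Lama3 encodes the alpha chain that assembles with the Lamb3 chain. Each is the 250 bases before the start, 5′ to 3′ on the strand of the gene, at chr13:107362303-107362552 (plus strand) for Lamb3, chr18:3952517-3952766 (plus strand) for Lama3 and chr17:80410634-80410883 (minus strand) for Itga8. Capitals mark the pattern TGANTCA (N is any base), used here for the AP-1 motif of Fos and Jun proteins, and the cyclic AMP response element (CRE) TGACGTCA. Each was searched on both strands.
Lamb3: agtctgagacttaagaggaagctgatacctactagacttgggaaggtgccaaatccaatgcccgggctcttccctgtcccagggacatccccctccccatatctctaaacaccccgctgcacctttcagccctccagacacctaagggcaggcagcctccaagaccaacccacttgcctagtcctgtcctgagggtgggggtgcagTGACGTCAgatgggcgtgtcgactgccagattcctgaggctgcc
Lama3: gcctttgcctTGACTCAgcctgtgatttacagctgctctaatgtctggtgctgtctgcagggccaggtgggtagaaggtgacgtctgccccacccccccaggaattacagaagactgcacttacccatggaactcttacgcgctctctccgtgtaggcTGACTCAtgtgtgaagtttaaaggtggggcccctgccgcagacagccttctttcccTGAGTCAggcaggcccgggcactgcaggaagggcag
Itga8: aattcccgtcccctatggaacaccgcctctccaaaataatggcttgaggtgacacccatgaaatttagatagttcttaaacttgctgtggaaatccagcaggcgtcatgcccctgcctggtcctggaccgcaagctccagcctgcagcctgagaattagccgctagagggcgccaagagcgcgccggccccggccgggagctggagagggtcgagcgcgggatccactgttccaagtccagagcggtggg

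The Lama3 stretch held 3 AP-1 matches, which began 240, 92 and 36 bases before the start. All 33469 promoters in the table were counted over the same 250 bases and the 50 that follow the start, with any base taken at N. At least 1 AP-1 match was held by 7.329% of them, and 5 promoters held 3 or more. Lama3 was the 1 member of 28 with any. The Lamb3 stretch held 1 CRE match, 44 bases before the start, against 1.829% of all promoters and no other member of the 28. The 2 motifs do not overlap each other, and the Itga8 stretch held neither. These matches are a description of the letters in this window.

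Levels of different genes were compared by the deposited FPKM values, which are scaled by gene length and library total. Over the 9 libraries the laminin chains were led by Lamc1 (mean 190 FPKM), Lama4 (133 FPKM) and Lamb2 (105 FPKM), with Lamb1 at 87.3 FPKM. Nid1 led the linkers at 257 FPKM. Among integrins, the shared beta chain Itgb1 stood at 316 FPKM and Itgb5 at 101 FPKM. The most abundant alpha chain was the collagen receptor chain Itga11 (70.6 FPKM), followed by the fibronectin receptor chain Itga5 (41.9 FPKM) and the vitronectin receptor chain Itgav (35.2 FPKM). In the control group Lama4 made up 89.8% ± 0.118 (SD, n = 3) of the FPKM of all alpha laminin chains, Lamc1 98.9% ± 0.142 of the gamma chains, and Lamb1 and Lamb2 49.3% ± 0.989 and 50.6% ± 0.965 of the beta chains. Lama2 made up most of the remaining alpha chain FPKM (9.66% ± 0.127), and Lama3, Lama5 and Lamb3 were minor chains at 0.312%, 0.195% and 0.114% of their classes.

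A gene was called when edgeR's quasi-likelihood test gave a Benjamini-Hochberg adjusted p under 0.05 over all 13256 tested genes and the absolute log2 fold change exceeded 0.58. Of the 36 genes, 32 passed the low-count filter, which a gene can pass through 1 group in which it is high. The 4 that did not pass were Lama1 (1 to 13 counts per library), Itga10 (1 to 7), Itgb6 (0 to 6) and Lamc3 (0 to 2). Thrombin against control called 6 of the 32 (18.8%), 3 higher, among them Lamb3 and Itgb3, and 3 lower (Itga8, Itgb8 and Lama5), where 8.06% of all tested genes were called (2.62% higher and 5.44% lower). PD03 against thrombin called 18 of the 32 (56.2%), 12 higher and 6 lower, where 15.9% of all genes were called (9.61% higher and 6.31% lower). PD03 against control called 10 of the 32 (31.2%), 7 higher and 3 lower, where 8.97% of all genes were called (4.9% higher and 4.07% lower). By the adjusted p alone, without the fold threshold, 11 genes were higher and 10 lower with thrombin, against 14.1% and 14.6% of all genes (28.7% in all). On the same rule 16 were higher and 12 lower for PD03 against thrombin, against 25.3% and 24.5% of all genes (49.8% in all), and 16 were higher and 4 lower for PD03 against control, against 19.7% and 20.2% (39.9% in all). The comparisons share libraries, the thrombin group being in the first and the second, so their counts are not independent of each other.

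The median absolute log2 fold change of the 32 genes was 0.27 with thrombin, 0.68 for PD03 against thrombin and 0.49 for PD03 against control, while all tested genes had medians of 0.14, 0.24 and 0.19. The median signed change of the 32 was -0.04, 0.27 and 0.20, against medians within 0.011 of 0 over all genes. The CPM of the compared libraries did not overlap for 23, 30 and 22 of the 32 genes (71.9%, 93.8% and 68.8%), where 40.3%, 55.5% and 47.8% of all tested genes did not overlap. In all, 20 genes were called in at least 1 comparison, a count for which no share over all tested genes was taken. Scaling by library totals instead of TMM moved the median of all genes to -0.09 for PD03 against thrombin and to -0.12 for PD03 against control, and the split of the 32 for PD03 against thrombin from 12 higher and 6 lower to 9 and 8.

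**Figure D1:**
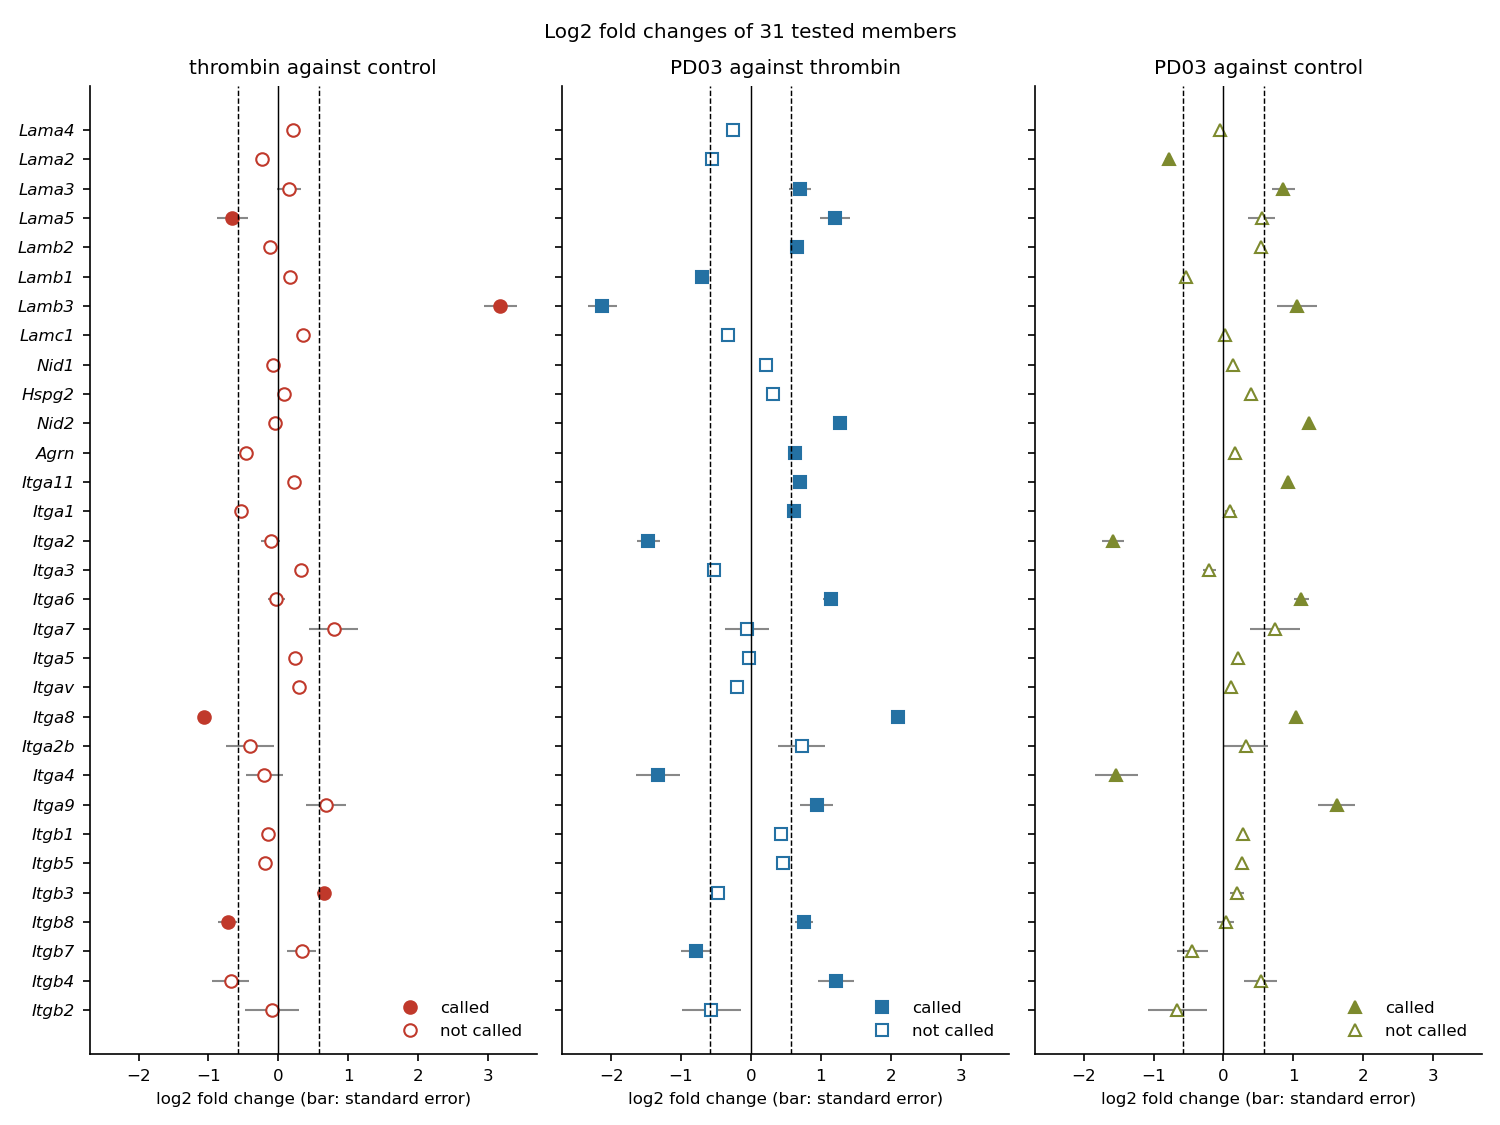
Log2 fold change of 31 tested genes, grouped by role, in each of the 3 comparisons, 1 per panel; horizontal bars show the standard error, filled symbols are called genes and dashed lines mark the fold threshold of 0.58 in either direction. Lamb3 lies farthest right with thrombin (3.18), and 17 of the genes shown are called with PD03 against thrombin.

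Among the laminin beta chains, the common chains Lamb1 and Lamb2 moved in opposite directions in the presence of PD03, and the minor chain Lamb3 rose with thrombin. Lamb3 (ENSRNOG00000006025), the beta chain of the epithelial anchoring laminin, had 0.707, 1.14 and 0.758 CPM in the 3 control libraries, 7.97, 6.64 and 8.98 CPM in the thrombin libraries and 1.85, 1.68 and 1.84 CPM in the PD03 libraries. The 3 groups did not overlap, and the PD03 libraries stood between the other groups. Lamb3 rose by 3.18 ± 0.23 on the log2 scale with thrombin (SE, adjusted p = 7.1e-15; 9.06-fold), fell by 2.12 ± 0.20 with PD03 against thrombin (adjusted p = 7.5e-12) and remained 1.05 ± 0.29 above control (adjusted p = 0.0031). These levels rest on 12 to 154 counts per library.

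Lamb1 (ENSRNOG00000005678), found in most basement membranes, had 645, 624 and 642 CPM in control, 729, 707 and 719 CPM with thrombin and 431, 450 and 443 CPM with PD03. All PD03 libraries lay below all others, and the fall against thrombin was 0.70 ± 0.03 (adjusted p = 2.0e-21). Lamb2 (ENSRNOG00000047768), the beta chain known from the neuromuscular junction and the kidney filter, had 537, 560 and 564 CPM in control, 495, 508 and 520 CPM with thrombin and 790, 807 and 818 CPM with PD03. The order of the groups was the opposite of that for Lamb1, with no overlap, and Lamb2 rose by 0.67 ± 0.03 against thrombin (adjusted p = 1.7e-20). Against control, both differences passed the adjusted p but not the fold threshold, at -0.53 for Lamb1 and 0.54 for Lamb2. With library totals in place of TMM, Lamb2 against thrombin was 0.57 and not called, and Lamb1 against control was -0.65 and called.

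Because a ratio of FPKM within a library does not depend on how the library is scaled, Lamb2 was also set against Lamb1. The ratio was 0.981, 1.06 and 1.04 in the control libraries, 0.8003, 0.847 and 0.852 in the thrombin libraries and 2.16, 2.11 and 2.18 in the PD03 libraries. The PD03 libraries stood above all others, and the thrombin libraries below all control libraries. Lamb2 made up 68.1% ± 0.333 of the beta chain FPKM in the PD03 group and 45.0% ± 0.850 in the thrombin group (SD, n = 3), while the beta chain sum was 192 FPKM ± 3.28 and 196 FPKM ± 1.94.

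**Figure D2:**
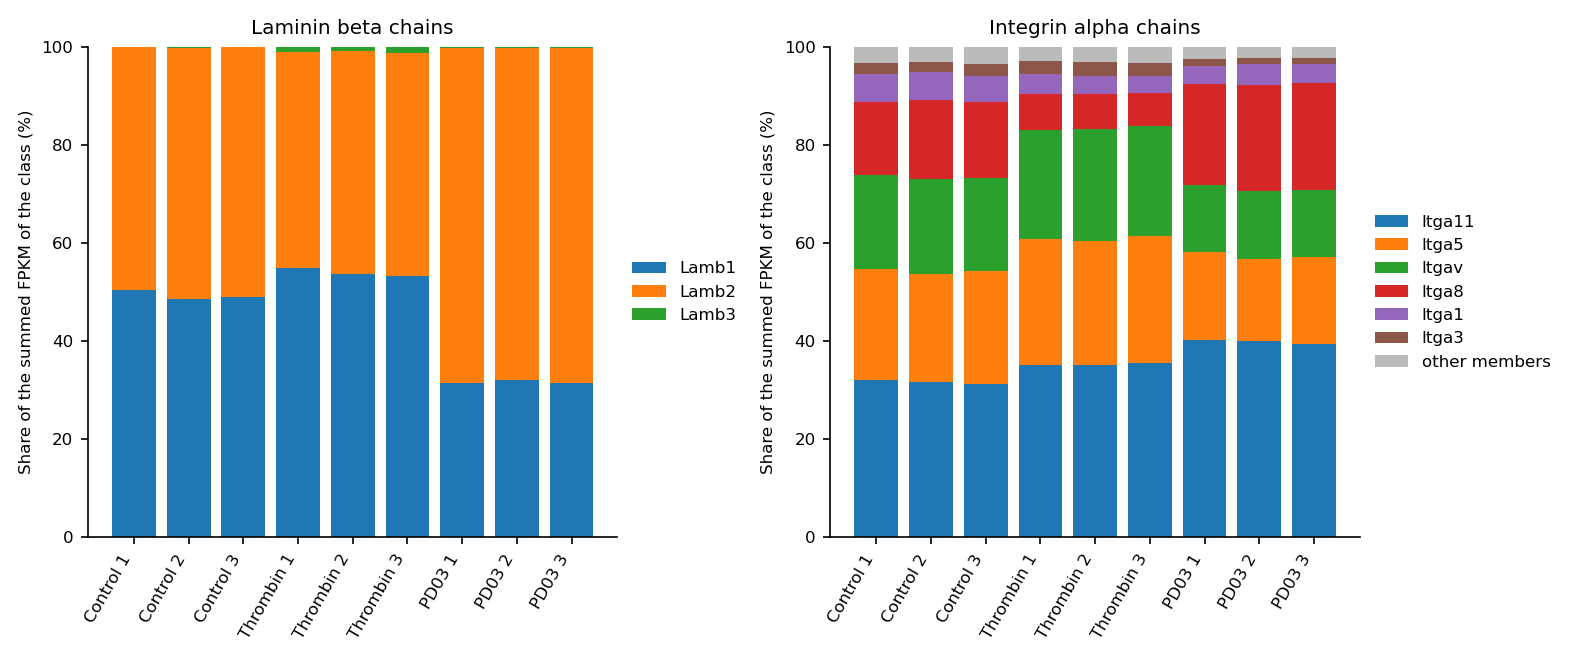
Share of each chain (percent) in the summed FPKM of the laminin beta chains (left) and the integrin alpha chains (right), with 1 stacked bar per library. Lamb2 takes on average 50.6% of the left bars in control and 68.1% with PD03, and Itga8 takes 15.6%, 7.11% and 21.3% of the right bars in control, thrombin and PD03.

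The alpha laminin chains fell into a dominant chain, Lama4, that was not called and 3 less abundant tested chains that were, and Lama1 was too scarce to test. Lama4, a chain of mesenchymal cells and vessels, lay between 714 and 907 CPM over all libraries and was called in no comparison (0.21, -0.26 and -0.04). Lama2 (ENSRNOG00000011134), the alpha chain of muscle and nerve basement membrane, had 135, 135 and 133 CPM in control, 116, 113 and 114 CPM with thrombin and 72.7, 76.9 and 84.0 CPM with PD03. The groups formed 3 separate steps, and Lama2 fell by 0.79 ± 0.05 with PD03 against control (adjusted p = 2.3e-17). Its change against thrombin was -0.55, short of the fold threshold, and passed it without PD03 replicate 3 (-0.61) and with library totals (-0.65).

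Lama3 (ENSRNOG00000011300), a partner of the Lamb3 chain in epithelia, had 4.46, 3.66 and 5.75 CPM in control, 5.12, 4.94 and 5.42 CPM with thrombin and 7.204, 9.197 and 8.81 CPM with PD03. The control and thrombin libraries overlapped (log2 fold change 0.16, adjusted p = 0.55), and Lama3 rose with PD03 by 0.70 ± 0.16 against thrombin (adjusted p = 2.4e-04) and by 0.86 ± 0.16 against control (adjusted p = 2.65e-05). Lama3 was therefore highest in the group in which Lamb3 was below its thrombin level. Lama5 (ENSRNOG00000053691), a widespread alpha chain of mature basement membranes, had 3.699, 2.46 and 3.41 CPM in control, 2.02, 1.97 and 2.10 CPM with thrombin and 4.397, 4.53 and 5.14 CPM with PD03. Lama5 fell by 0.66 ± 0.22 with thrombin (adjusted p = 0.022) and rose by 1.20 ± 0.21 with PD03 against thrombin (adjusted p = 6.1e-06). The fall with thrombin rested on 34 to 68 counts per library and was not called without Control replicate 1 (-0.53, adjusted p = 0.13), Control replicate 3 (-0.61, adjusted p = 0.075), Thrombin replicate 1 (-0.65, adjusted p = 0.050) or Thrombin replicate 2 (-0.63, adjusted p = 0.067). Against control, Lama5 with PD03 was at 0.55, under the fold threshold, and passed it without Control replicate 1 (0.67), Control replicate 3 (0.59) or PD03 replicate 1 (0.59).

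Of the gamma chains, the common chain Lamc1 had means of 1323, 1685 and 1344 CPM in control, thrombin and PD03 and was not called, at 0.35 with thrombin and -0.33 with PD03 against thrombin.

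The 4 linkers were all higher with PD03 than with thrombin in every library, and 2 of them passed the fold threshold. Nid2 (ENSRNOG00000000341), the less abundant nidogen, had 312, 330 and 331 CPM in control, 321, 311 and 311 CPM with thrombin and 760, 756 and 766 CPM with PD03. The control and thrombin libraries overlapped and the PD03 libraries stood apart from both, 1.28 ± 0.03 above thrombin (adjusted p = 4.9e-30) and 1.23 ± 0.03 above control (adjusted p = 7.3e-29). Nid1 differed by less: its means were 1495, 1412 and 1648 CPM, and its differences of 0.22 against thrombin (adjusted p = 6.6e-08) and 0.14 against control (adjusted p = 2.6e-04) with PD03 did not reach the fold threshold, and the Nid2 to Nid1 ratio of FPKM went from 0.268 ± 0.008 in control and 0.274 ± 0.009 with thrombin to 0.570 ± 0.019 with PD03 (SD, n = 3).

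Agrn (ENSRNOG00000020205), which also organises acetylcholine receptors at the nerve-muscle contact, had 46.1, 51.1 and 45.9 CPM in control, 36.1, 34.5 and 32.8 CPM with thrombin and 52.3, 54.8 and 53.6 CPM with PD03. The 3 groups did not overlap. The drop with thrombin (-0.47, adjusted p = 1.1e-07) did not reach the fold threshold, and the rise with PD03 against thrombin did (0.64 ± 0.06, adjusted p = 1.9e-11), although not with library totals (0.54). Hspg2 had means of 1748, 1851 and 2297 CPM and was called in no comparison, with its largest difference at 0.39 for PD03 against control.

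**Figure D3:**
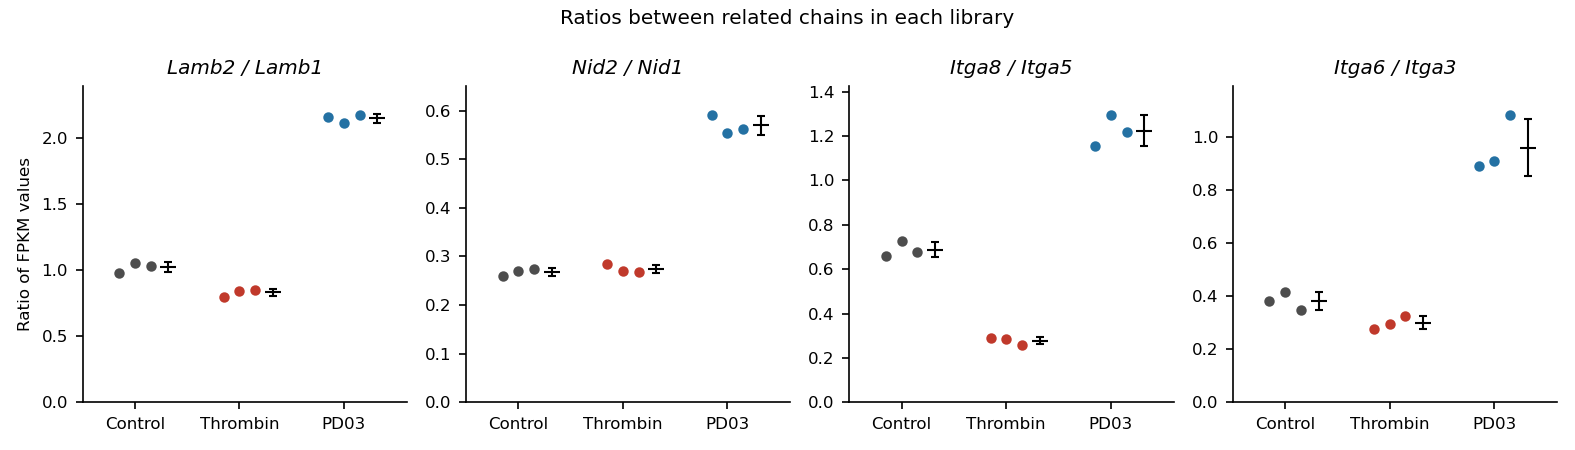
Ratio of the FPKM values of 4 pairs of related chains, with 1 point per library and, beside the points, the mean and SD of each group (n = 3; linear axes from 0). The Lamb2 to Lamb1 ratio lies between 2.11 and 2.18 with PD03 and at or below 1.06 in the other libraries, and the Nid2 to Nid1 ratio overlaps between control and thrombin.

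Among the integrin alpha chains, Itga8 had the widest swing. Itga8 (ENSRNOG00000016538) pairs with Itgb1 and binds nephronectin and other ligands through their RGD motif. It had 152, 162 and 156 CPM in control, 78.9, 74.6 and 70.6 CPM with thrombin and 307, 326 and 333 CPM with PD03. The groups did not overlap, and thrombin and PD03 stood on opposite sides of the control. Itga8 fell by 1.07 ± 0.05 with thrombin (adjusted p = 2.0e-22), rose by 2.11 ± 0.05 with PD03 against thrombin (adjusted p = 1.25e-33; 4.31-fold) and lay 1.04 ± 0.04 above control (adjusted p = 3.4e-23). The other RGD-binding alpha chains were not called: Itga5 had means of 198, 234 and 229 CPM, Itgav 235, 291 and 254 CPM, and Itga2b, the platelet chain, 1.22, 0.914 and 1.53 CPM. The ratio of Itga8 to Itga5 in FPKM was 0.689 ± 0.035 in control, 0.278 ± 0.015 with thrombin and 1.22 ± 0.07 with PD03 (SD, n = 3).

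All 3 tested collagen-binding alpha chains were called with PD03 against thrombin, 2 higher and 1 lower. Itga11 (ENSRNOG00000006723), the main collagen receptor chain of mesenchymal cells, had 273, 266 and 264 CPM in control, 317, 304 and 314 CPM with thrombin and 503, 507 and 505 CPM with PD03. The groups formed rising steps without overlap, and Itga11 rose by 0.70 ± 0.03 against thrombin (adjusted p = 1.1e-20) and by 0.92 ± 0.04 against control (adjusted p = 3.25e-24). Itga1 (ENSRNOG00000053550), which prefers basement membrane collagen, had 37.2, 37.0 and 35.6 CPM in control, 27.5, 24.7 and 23.8 CPM with thrombin and 35.5, 41.6 and 40.03 CPM with PD03. Its thrombin libraries were lowest, and its control and PD03 libraries overlapped. Itga1 rose by 0.62 ± 0.07 with PD03 against thrombin (adjusted p = 1.7e-09), a call lost without Thrombin replicate 3 (0.58) or PD03 replicate 2 (0.56) and with library totals (0.52).

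Itga2 (ENSRNOG00000058111), the fibrillar collagen receptor chain shared with platelets and epithelia, went the other way. It had 9.03, 7.58 and 10.7 CPM in control, 8.68, 7.51 and 9.09 CPM with thrombin and 3.34, 2.91 and 2.82 CPM with PD03. The control and thrombin libraries overlapped and all PD03 libraries lay below them. Itga2 fell by 1.47 ± 0.16 with PD03 against thrombin (adjusted p = 4.1e-10) and by 1.58 ± 0.16 against control (adjusted p = 1.0e-10). Its FPKM relative to Itga11 was 0.0465 ± 0.0083 in control, 0.0370 ± 0.0029 with thrombin and 0.00818 ± 0.00078 with PD03 (SD, n = 3).

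Of the laminin-binding alpha chains, Itga6 was called and Itga3 and Itga7 were not. Itga6 (ENSRNOG00000001518) pairs with Itgb1 or Itgb4 and had 9.08, 9.28 and 8.72 CPM in control, 8.33, 8.83 and 9.44 CPM with thrombin and 20.7, 17.8 and 20.0 CPM with PD03. The PD03 libraries stood apart, 1.14 ± 0.11 above thrombin on the log2 scale (adjusted p = 3.1e-12) and 1.11 ± 0.11 above control (adjusted p = 1.2e-11). Itga3 had means of 19.4, 24.2 and 16.8 CPM, and its difference of -0.53 against thrombin missed the fold threshold, which it passed without PD03 replicate 1 (-0.64) and with library totals (-0.63). The Itga6 to Itga3 ratio of FPKM was 0.383 ± 0.033 in control, 0.300 ± 0.024 with thrombin and 0.960 ± 0.107 with PD03 (SD, n = 3). Itga7, the muscle laminin receptor chain, had 9 to 42 counts per library and means of 1.00, 1.76 and 1.69 CPM, with no call over all libraries. It was called higher with thrombin without Control replicate 1 (1.095, adjusted p = 0.047) or Thrombin replicate 1 (1.01, adjusted p = 0.036), and with PD03 against control without Control replicate 1 (1.04) or PD03 replicate 3 (0.97).

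The Itga4 and Itga9 chains, 2 alpha chains of related structure that are not partners of each other, moved in opposite directions with PD03. Itga4 (ENSRNOG00000004861), the receptor chain for Vcam1 and fibronectin, had 2.67, 2.21 and 2.15 CPM in control, 2.02, 2.36 and 1.75 CPM with thrombin and 0.954, 0.583 and 0.857 CPM with PD03. The PD03 libraries lay below all others, and Itga4 fell by 1.34 ± 0.31 against thrombin (adjusted p = 4.4e-04) and by 1.53 ± 0.31 against control (adjusted p = 8.4e-05). Itga9 (ENSRNOG00000043167), a receptor chain for tenascin and osteopontin, had 0.925, 1.01 and 1.89 CPM in control, 1.67, 2.19 and 2.21 CPM with thrombin and 3.55, 4.404 and 3.80 CPM with PD03. The PD03 libraries were highest and Control replicate 3 reached into the thrombin range. Itga9 rose by 0.94 ± 0.24 with PD03 against thrombin (adjusted p = 0.0011) and by 1.62 ± 0.26 against control (adjusted p = 2.3e-06), and its difference with thrombin (0.68, adjusted p = 0.072) was called without Control replicate 3 (1.07, adjusted p = 0.012) or Thrombin replicate 1 (0.80, adjusted p = 0.049). Both genes are scarce, with 9 to 49 counts per library for Itga4 and 16 to 68 for Itga9.

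Of the beta chains, the abundant Itgb1 and Itgb5 were not called and 4 minor ones were. Itgb1 had means of 1129, 1018 and 1369 CPM and Itgb5 of 282, 246 and 339 CPM in control, thrombin and PD03, with differences against thrombin of 0.43 and 0.47 for PD03. The Itgb5 to Itgb1 ratio of FPKM was 0.323 ± 0.011, 0.313 ± 0.016 and 0.322 ± 0.024 (SD, n = 3) and overlapped in all 3 comparisons, and Itgb1 held 73.8 to 74.2% of the beta chain FPKM in every group mean.

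Itgb3 (ENSRNOG00000048449), which pairs with Itgav as a vitronectin and osteopontin receptor, had 13.7, 13.4 and 16.4 CPM in control, 21.5, 21.6 and 25.2 CPM with thrombin and 17.5, 16.6 and 15.2 CPM with PD03. The thrombin libraries were highest and the control and PD03 libraries overlapped. Itgb3 rose by 0.66 ± 0.10 with thrombin (adjusted p = 6.1e-07), was at the threshold without Thrombin replicate 3 (0.58, not called) and was at -0.47 with PD03 against thrombin, which passed the adjusted p (6.4e-05) but not the fold threshold. Itgb8 (ENSRNOG00000006569), which pairs with Itgav and binds latent transforming growth factor β, had 13.1, 9.98 and 11.2 CPM in control, 8.33, 6.69 and 5.83 CPM with thrombin and 11.5, 12.2 and 11.5 CPM with PD03. It moved opposite to Itgb3: its thrombin libraries were lowest, with a fall of 0.73 ± 0.13 (adjusted p = 2.6e-05), and it rose by 0.76 ± 0.13 with PD03 (adjusted p = 4.95e-06) to a level that overlapped the control.

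Itgb4 (ENSRNOG00000005580), the hemidesmosome chain that pairs with Itga6, had 1.90, 2.08 and 2.78 CPM in control, 1.25, 1.75 and 1.17 CPM with thrombin and 3.34, 2.91 and 3.49 CPM with PD03. The groups did not overlap, and Itgb4 rose by 1.22 ± 0.26 with PD03 against thrombin (adjusted p = 1.0e-04). Its difference with thrombin (-0.68, adjusted p = 0.053) was not called over all libraries, but was without Control replicate 1 (-0.80, adjusted p = 0.043) or Thrombin replicate 2 (-0.89, adjusted p = 0.033). Itgb7 (ENSRNOG00000012208), a partner of Itga4 on lymphocytes, had 3.64, 2.53 and 3.47 CPM in control, 3.93, 4.61 and 3.67 CPM with thrombin and 2.54, 1.94 and 2.57 CPM with PD03. Its thrombin libraries were highest, and its control and PD03 libraries overlapped. It fell by 0.78 ± 0.21 with PD03 against thrombin (adjusted p = 0.0021), in the same comparison in which Itga4 fell. Itgb2, the leukocyte chain, had 9 to 17 counts per library and was not called.

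**Figure D4:**
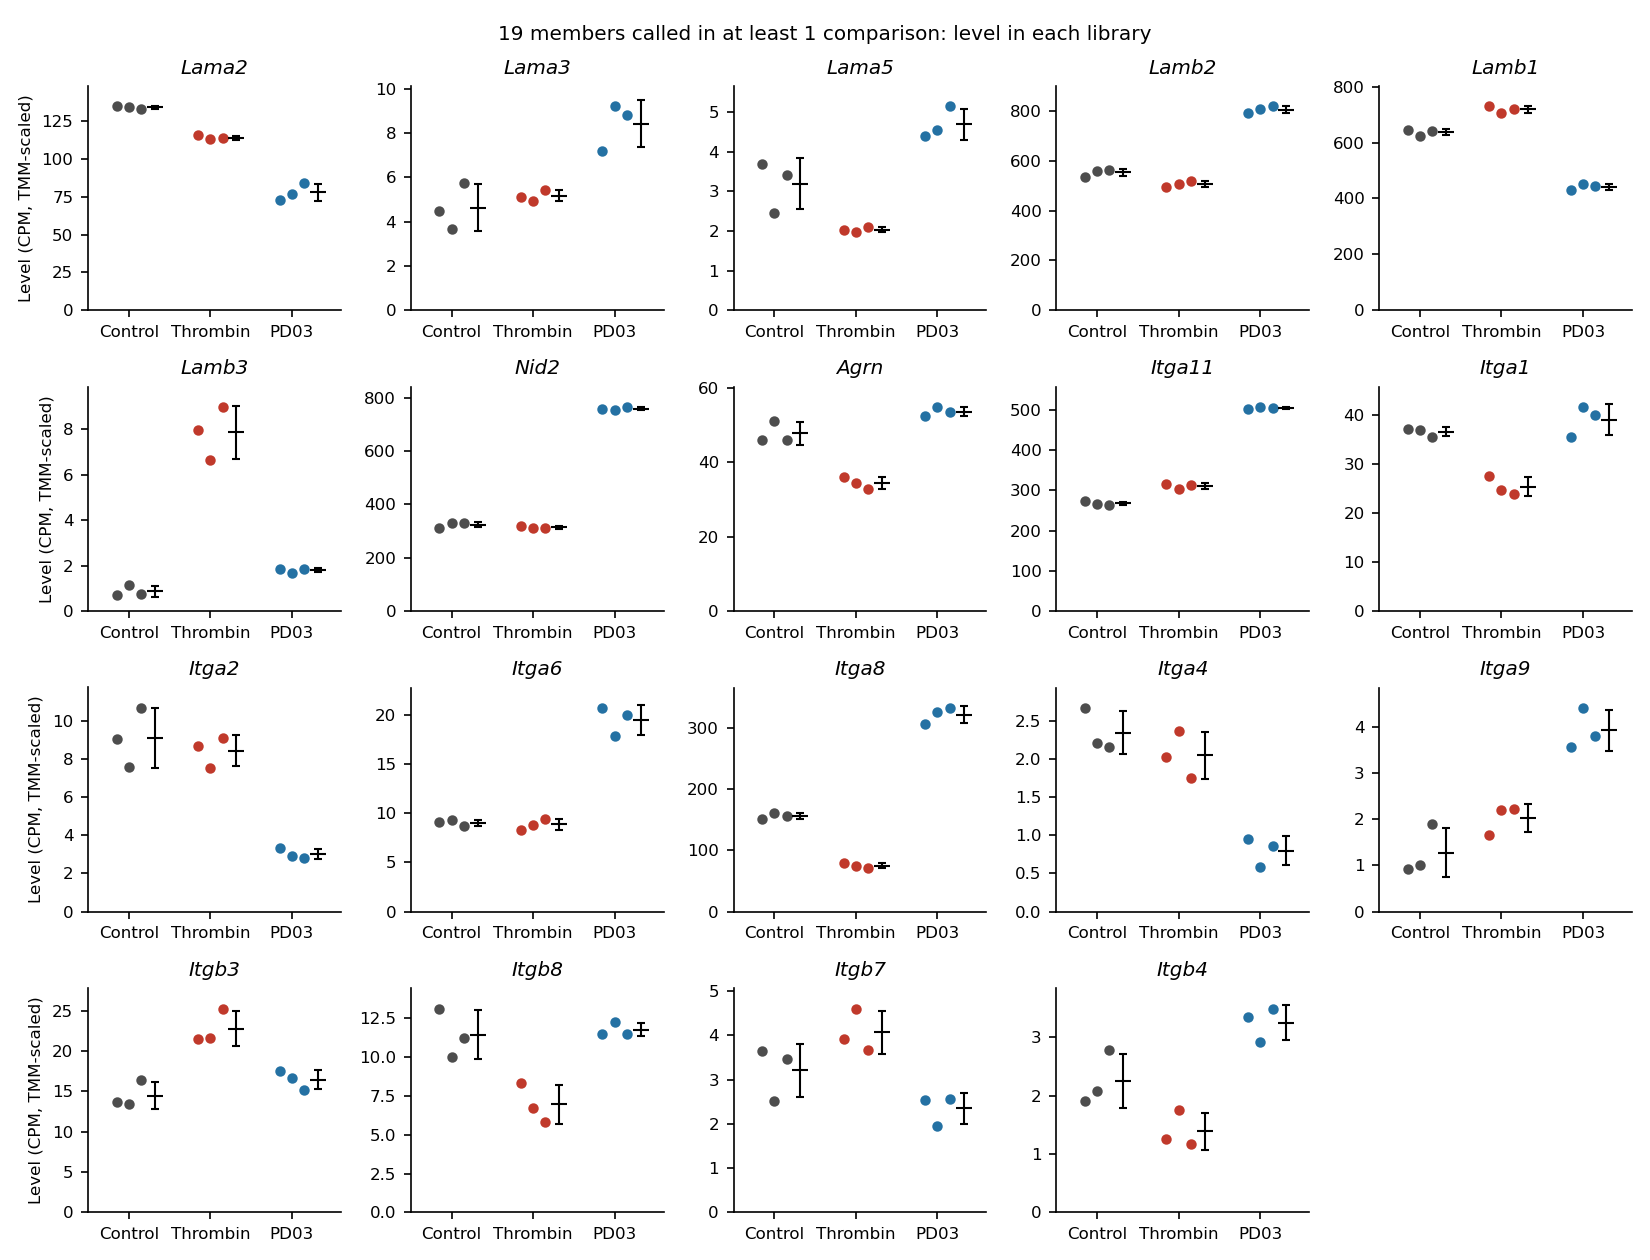
Level of 19 genes called in at least 1 comparison in every library (CPM after TMM scaling; linear axes from 0, with a range of their own for each gene), with 1 point per library and, beside the points, the mean and SD of each group (n = 3). Itga8 lies between 70.6 and 78.9 CPM with thrombin and between 307 and 333 CPM with PD03, and the control libraries of Lamb3 lie at or below 1.14 CPM.

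Over the 3 groups, 5 of the 6 genes called with thrombin were called in the opposite direction with PD03 against thrombin (among them Lamb3, Itga8, Itgb8 and Lama5), and Itgb3 was not. Since both comparisons use the thrombin libraries, a chance high or low thrombin value moves them in opposite directions. Itgb8 and Lama5 were not called against control, whereas Itga8 and Lamb3 were called above it. A further 13 genes were called with PD03 against thrombin and not with thrombin, among them Nid2, Itga6, Itga11 and Itga2. Beside the PD03 results stand the rises of the smooth muscle and pericyte marker sum and of the osteoblast marker sum given above. Their part in these results was not tested. The epithelial anchoring genes Lamb3 and Itgb4 stand beside epithelial markers whose summed level was 6.74 to 8.65 CPM in control, 4.22 to 5.81 CPM with thrombin and 9.86 to 13.3 CPM with PD03, carried by Krt8, with Cdh1 at 0 to 6 counts. Itgb4 had the same order of groups as this sum (means of 2.26, 1.39 and 3.25 CPM). Lamb3 did not: it was highest with thrombin, where the sum was lowest (means of 0.867, 7.86 and 1.79 CPM). A link of either gene to these markers was not tested.

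In all, 11 ratios of chain pairs were formed after the levels had been seen, which gave 33 comparisons, and the libraries did not overlap in 25 of them. With 3 libraries against 3, the exact two-sided permutation test cannot go below p = 0.10, and the smallest adjusted value over the 33 was 0.13. According to the RefSeq annotation of GRCr8, 5 of the 36 genes overlap another protein-coding gene (Itga1 with Pelo, Itga4 with Cerkl, Itga7 with Mettl7b, Itgb1 with an unnamed locus and Itgb7 with Znf740). Overlap was taken over whole gene spans, introns included, and shared exons were not examined. No source used here gives the strandedness of the counting, so reads from a stretch that both genes of a pair share cannot be assigned by strand.

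Genes that act with these chains were described from 5 lists. Of 22 tested other basement membrane genes, 2 rose and 3 fell with thrombin (median log2 fold change -0.13), where 2.62% and 5.44% of all tested genes did, and 11 rose and 3 fell with PD03 against thrombin (median 0.52), where 9.61% and 6.31% of all tested genes did. The same shares of all genes apply to the other lists. Npnt, which encodes nephronectin, the ligand of the Itga8 integrin, had means of 36.6, 12.9 and 66.3 CPM in control, thrombin and PD03. It fell by 1.50 ± 0.08 and rose by 2.36 ± 0.07 in the 2 comparisons, and so had the same order of groups as Itga8. Fras1, a protein that holds epithelium to the underlying tissue, had 14.7, 5.27 and 36.8 CPM, with changes of -1.48 ± 0.12 and 2.80 ± 0.11. Col4a6 fell with thrombin (4.65 to 2.51 CPM, -0.88 ± 0.19), and Smoc1 rose with PD03 against thrombin (11.9 to 34.2 CPM, 1.51 ± 0.10).

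Among 19 tested non-integrin laminin receptors, that is the dystrophin and dystroglycan complex and its glycosylation enzymes, 1 rose and 2 fell with thrombin (median 0.01) and 6 rose and 1 fell with PD03 against thrombin (median 0.36). Dmd, which encodes dystrophin, had means of 5.04, 2.52 and 7.87 CPM, with changes of -0.99 ± 0.19 and 1.63 ± 0.18. Dmd is best known from muscle. Of the 8 tested muscle and pericyte markers, 6 rose with PD03 against thrombin, where 9.61% of all tested genes did. With thrombin, where Dmd fell, 0 of the 8 were called, against 8.06% of all tested genes. A link between Dmd and these markers was not tested. The scarcer genes Sgca (means of 0.569, 1.24 and 0.500 CPM) and Dtna (0.443, 0.380 and 1.73 CPM) are among the counts, but each passed the low-count filter through the group in which it is high, so these values are a description.

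Of 18 tested integrin ligands other than laminins, 4 rose and 1 fell with thrombin (median 0.22) and 4 rose and 1 fell with PD03 against thrombin (median 0.10). Spp1, osteopontin, had 63.7, 185 and 53.1 CPM, with changes of 1.54 ± 0.05 and -1.80 ± 0.05, and was highest with thrombin, as was its receptor chain Itgb3. Itga9, also a receptor chain for osteopontin, was highest with PD03 instead (means of 1.28, 2.02 and 3.92 CPM). Vcam1, the ligand of the Itga4 integrins, fell with thrombin from 23.8 to 9.67 CPM (-1.30 ± 0.10) and rose with PD03 to 16.8 CPM (0.80 ± 0.11). Tgfbi rose with thrombin from 65.3 to 125 CPM (0.94 ± 0.05), and Thbs2 rose with PD03 from 4132 to 7658 CPM (0.89 ± 0.03).

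Of the cytoplasmic integrin linkers, 3 of 32 tested rose and 1 fell with thrombin, and 2 rose and 2 fell with PD03 against thrombin (medians 0.05 and 0.09), a share near that of all genes. Lims2, a partner of integrin-linked kinase, had means of 2.49, 1.23 and 11.3 CPM (-1.0 ± 0.25 and 3.18 ± 0.20), Parvb 43.4, 71.3 and 30.2 CPM (0.72 ± 0.06 and -1.24 ± 0.06) and Tns3, a tensin, 96.8, 154 and 88.3 CPM (0.67 ± 0.05 and -0.81 ± 0.05). Of 7 tested tetraspanins that accompany integrins, Tspan8 fell with thrombin from 37.4 to 14.5 CPM (-1.36 ± 0.08) and rose with PD03 to 30.8 CPM (1.08 ± 0.08), and Cd82 fell with PD03 against thrombin from 279 to 184 CPM (-0.60 ± 0.04). With PD03 against control, 7 of the other basement membrane genes rose and 2 fell, and 7 of the non-integrin laminin receptors, 5 of the integrin ligands and 2 of the cytoplasmic linkers rose, where 4.9% of all tested genes rose and 4.07% fell. The median log2 fold change of all tested genes was -0.01 with thrombin and 0.01 with PD03 against thrombin.

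**Figure D5:**
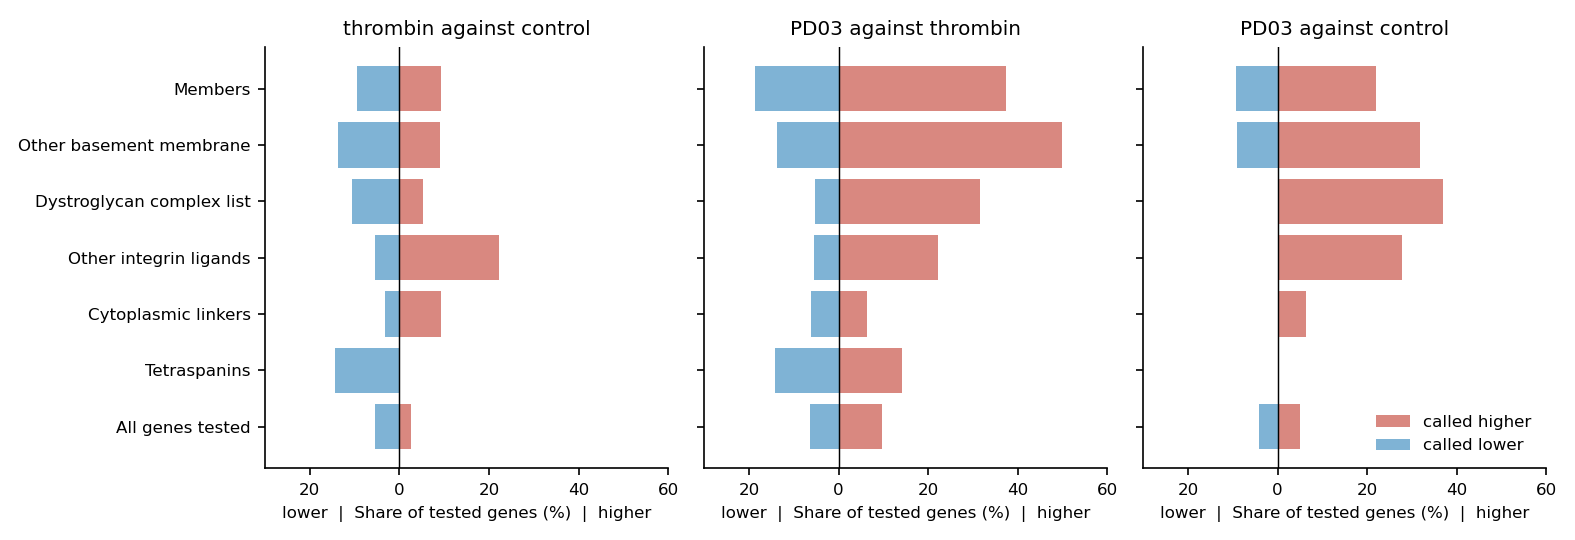
Percent of tested genes called higher (right) and lower (left) among the laminins, integrins and linkers described here (Members) and in the 5 related lists, for each comparison, with all tested genes in the bottom row. Other basement membrane genes were called higher in 11 of 22 and integrin linkers in 2 of 32 with PD03 against thrombin.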

How the data were processed

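The authors deposited 1 table with a raw count and an FPKM value per gene and library, from 9 polyadenylated RNA libraries. Per the labels, reads were aligned with HISAT2 to mRatBN7.2 and counted with HTSeq 0.13.5, while the methods of the study name another build (Rnor_6.0) and another counter (featureCounts), and no source used here gives the strandedness. The deposited FPKM values equal the counts scaled by library total and gene length, so they move with the library totals.

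Counts were tested in R 4.3.3 with edgeR 4.0.16: filterByExpr (minimum count 10) kept 13256 genes, libraries were scaled by TMM, the 3 groups entered 1 quasi-likelihood fit, and the Benjamini-Hochberg adjustment covered every tested gene. A log2 fold change carries its standard error. The biological coefficient of variation was 4.28%. No 2 libraries of a group were alike within counting noise, so each was kept as a sample of its own. Plots used matplotlib 3.10.9 in Python 3.11.15.

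The genes and the lists were chosen with earlier results of these data known. Named were every gene of the set called in at least 1 comparison, the most abundant of each role, those that failed the filter, and from each list up to 3 called genes with the largest change, at least 1 CPM and no overlap of libraries. Some genes that this rule names are not reported here, although the counts and medians include them. Alternatives were other scalings, filters and thresholds, DESeq2 1.42.0, limma 3.58.1 on counts (voom) and on log2(FPKM + 1) and log2(FPKM + 0.1), the replicate number as a block, only the 2 groups compared, and leaving out each library. Promoter stretches came from RefSeq (GRCr8), whose build differs from that of the files.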

Additional observations from a re-analysis of the deposited data

How the results depend on the processing

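Counts of called genes among the 32 tested (thrombin 3 higher and 3 lower, PD03 against thrombin 12 and 6, PD03 against control 7 and 3) stayed as they were with DESeq2, limma voom, DESeq2-type size factors in edgeR, no low-count filter and fits of only the 2 groups compared. Without the fold threshold they were 11 and 10, 16 and 12, and 16 and 4. With a mean count of at least 50, which left 26 of the genes, they were 3 and 3, 10 and 5, and 6 and 2. With a threshold of 1 they were 2 and 1, 5 and 4, and 5 and 2, with a test against the threshold (glmTreat) 2 and 1, 7 and 5, and 5 and 3, and with log2(FPKM + 1) 2 and 1, 4 and 5, and 4 and 3, where the added 1 shrinks the changes of scarce genes. With library totals the split for PD03 against thrombin was 9 and 8, and with log2(FPKM + 0.1) it was 8 and 8; over all genes the share of calls that were higher was 60.4% with TMM, 46.5% with library totals, 42.8% with log2(FPKM + 1) and 46.3% with log2(FPKM + 0.1). For PD03 against control, library totals, log2(FPKM + 1) and log2(FPKM + 0.1) turned the sign of Lamc1 (-0.093 each), Itgav (-0.0074, -0.0066 and -0.0068), Itgb8 (-0.085, -0.047 and -0.066) and Itga1 (-0.026, -0.022 and -0.024), none of them called. Leaving out 1 library gave 2 to 5 genes higher and 2 to 3 lower with thrombin, 11 to 12 and 6 to 8 for PD03 against thrombin, and 7 to 9 and 3 to 4 for PD03 against control. The 5 were reached without Thrombin replicate 1, with Itga7 (1.01, adjusted p = 0.036) and Itga9 (0.80, adjusted p = 0.049) added, and the 2 without Thrombin replicate 3, with Itgb3 lost. Calls gained without 1 library and not named in the report were Itga1 with thrombin without Thrombin replicate 1 (-0.59) and, for PD03 against control, Itgb4 without Control replicate 3 (0.70) and Itgb7 without Control replicate 2 (-0.60). Leaving out 1 library turned the sign of differences that were not called, namely Itgb2 (-0.24 to 0.047), Itga6 (-0.072 to 0.020) and Itga2 (-0.22 to 0.020) with thrombin, Itga7 (-0.28 to 0.25) for PD03 against thrombin and Itgb8 (-0.063 to 0.15) for PD03 against control. The replicate numbers did not pair the samples (correlations of deviations -0.046 to 0.052 over 9 same-numbered pairs and -0.056 to 0.055 over 18 others), and a replicate block left the counts at 3 and 3, 12 and 6, and 7 and 3. Depth limits the scarce genes, among them Itga2b, Itga4, Itga7, Itga9, Itgb2, Itgb4 and Lamb3.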

Other observations

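Among integrin alpha chains named by a letter, which were not part of the set, Itgam had 2 to 9 counts per library and Itgal 0 to 5, too few to be tested, and Itgax had 6 to 18 and was not called (-0.06 with thrombin, 0.13 for PD03 against thrombin and 0.06 for PD03 against control). The leukocyte marker sum lay between 21.4 and 24.5 CPM in the control libraries, between 29.7 and 33.3 CPM in the thrombin libraries and between 18.1 and 19.8 CPM in the PD03 libraries, most of it from Cd14. Csf1r of the same list was highest with PD03 instead, with means of 0.440, 0.746 and 1.24 CPM in control, thrombin and PD03. With PD03 against control, 1 of the 3 tested leukocyte markers was called higher and 0 lower, where 4.9% and 4.07% of all tested genes were. The endothelial marker sum lay between 27.7 and 30.6 CPM, between 33.2 and 35.0 CPM and between 46.6 and 52.1 CPM in the same order, most of it from Egfl7, and Kdr and Tek rose with PD03 against thrombin by 1.42 ± 0.37 and 0.62 ± 0.14 on the log2 scale. Of the 4 genes that failed the low-count filter, Itgb6 had 0 to 2 counts in the control libraries, 2 to 6 in the thrombin libraries and 5 to 6 in the PD03 libraries.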
